A study of Drosophila melanogaster with 2 samples.

Results

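The translation factor genes of Drosophila melanogaster were taken as every protein-coding gene of the Ensembl BDGP6 annotation whose symbol starts with eIF, eEF or eRF. The rule found 54 genes among the 13945 protein-coding genes on the 6 chromosome arms. They divide into 8 genes for elongation, 44 for initiation and 2 for release. A gene was counted as bound where the summit of a thresholded peak lay within 500 bp of any of its annotated transcription start sites (TSSs). The rule used no measured value, and all 54 genes were scored, but this group of genes was chosen with earlier results of these data known.

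The measurement was ChIP-seq of the CG4707 protein in whole embryos of mixed sex, aged 0 to 14 h, from a transgenic line that stably carries CG4707 with GFP at its C terminus. The series holds 1 group of 2 biological replicates, numbered 2 and 3, and nothing in the labels gives a second condition or an untagged line, so every comparison is between genes within that group. A free-text label on both libraries speaks of an input control, while their titles, assay field and antibody field describe ChIP of the transcription factor, and the regions were read as those of the immunoprecipitated chromatin. Whole embryos mix all cell types of those hours, so binding in few cells and weak binding in many cannot be told apart, and the files analysed give regions and not reads, which leaves the depth of each library unknown.

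Protein synthesis begins when initiation factors bring the small ribosomal subunit and the initiator tRNA to the start codon of a capped mRNA. Elongation factors then deliver the charged tRNAs and move the ribosome along the message, and release factors recognise the stop codon and free the finished chain. Many of these proteins are subunits of larger assemblies, among them eIF2, its exchange factor eIF2B, the large scaffold eIF3, the cap-binding group of eIF4A, eIF4E and eIF4G, and the eEF1 complex. In flies the genes for ribosomal proteins and for several translation factors often start within a run of pyrimidines called the TCT element. Other housekeeping promoters carry the DNA replication-related element (DRE).

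The sequences at the summits differed between these genes, and those that the results below turn on are given 5′ to 3′ from the Release 6 (dm6) genome. At eEF1gamma the summit lay at the start site itself, on the plus strand at chr3R:29220102-29220201, where capitals mark the DRE letters TATCGATA, the summit is base 70 and the first transcribed base is base 71.
eEF1gamma: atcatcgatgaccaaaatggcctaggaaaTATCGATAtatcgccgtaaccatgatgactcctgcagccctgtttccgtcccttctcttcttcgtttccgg
At eEF2, on the minus strand at chr2L:21682097-21682126, capitals mark TCTTT, whose C lies 4 bases downstream of the start site at base 11.
eEF2: tgcagcgcctcgcTCTTTcctgtcgaaacg
The DRE letters with 11 bases on each side are shown for 2 initiation genes with a match near the summit, both on the plus strand, at chr3L:3223034-3223063 for eIF1 and at chr3L:21824865-21824894 for eIF2A.
eIF1: ggcagggcaacTATCGATAagcatttcgta
eIF2A: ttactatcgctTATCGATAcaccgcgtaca
A summit with neither element is that of eIF2beta, on the minus strand at chr3L:12526919-12527119, where capitals mark CACTGT, the reverse complement of ACAGTG.
eIF2beta: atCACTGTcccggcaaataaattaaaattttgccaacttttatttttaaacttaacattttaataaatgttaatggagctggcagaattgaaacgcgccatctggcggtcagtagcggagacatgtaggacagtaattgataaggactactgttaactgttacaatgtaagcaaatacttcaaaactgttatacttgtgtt
The highest-ranked summit among the translation factor genes, that of eIF4EHP, lay in A and T rich sequence between 2 divergent genes, shown on the minus strand at chr3R:24109084-24109284 with no capitals because none of the letters searched occur in it.
eIF4EHP: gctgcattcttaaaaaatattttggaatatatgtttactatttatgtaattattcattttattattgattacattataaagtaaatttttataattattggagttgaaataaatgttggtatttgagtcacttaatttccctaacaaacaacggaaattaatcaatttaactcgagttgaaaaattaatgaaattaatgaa

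CG4707 peaks were found at 13 of the 54 translation factor genes (24.1%, exact 95% interval 13.5 to 37.6%), against 12.0% of all protein-coding genes (1675 of 13945) and 71.7% of the cytosolic ribosomal protein genes (66 of 92). The bound genes were eEF1alpha1, eEF1gamma, eEF2 and eEF5 among the elongation factors, and eIF1, eIF2A, eIF2beta, eIF3h, eIF4A, eIF4EHP, eIF4G2, eIF5B and eIF6 among the initiation factors. By role, 4 of 8 elongation genes were bound (50%, interval 15.7 to 84.3%), 9 of 44 initiation genes (20.5%, 9.80 to 35.3%) and 0 of 2 release genes (upper limit 84.2%). These intervals cover the counting error of genes only, and those of elongation and initiation overlap. The thresholded list holds the 3470 pooled regions of highest signal. The list of 30000 pooled regions is labelled as peaks and background, so a region below the threshold does not by itself show binding. In that list 30 of the 54 genes (55.6%) had a summit within 500 bp of a TSS, against 47.1% of all protein-coding genes. The 2 shares lay nearer to each other than those at the threshold.

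**Figure D1:**
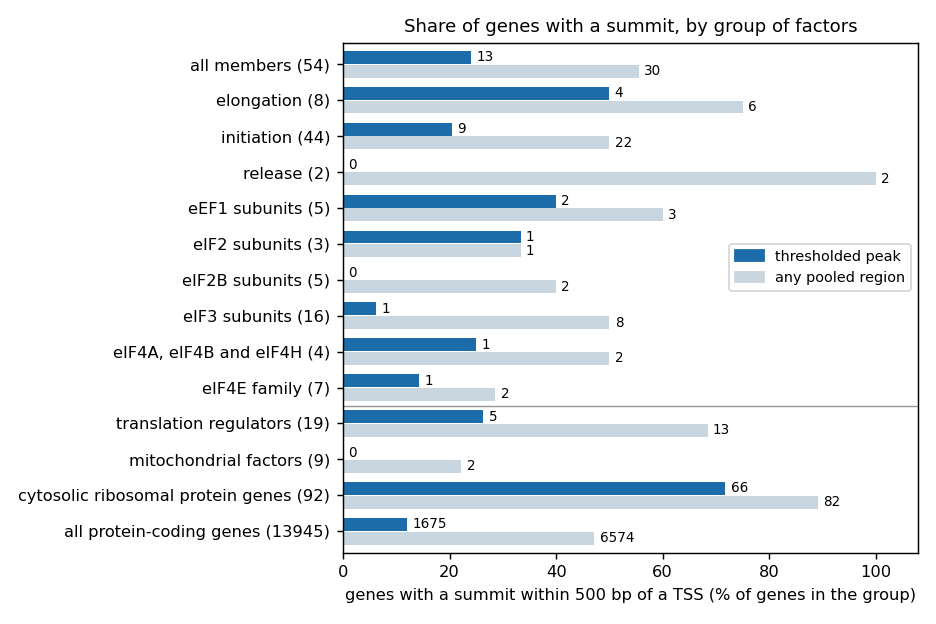
Share of genes with a summit within 500 bp of a TSS, in percent of the genes in each group, with group sizes in brackets and gene counts at the bar ends; dark bars are thresholded peaks and pale bars any pooled region. Of the elongation genes 4 of 8 carried a thresholded peak, against 66 of 92 ribosomal protein genes and 1675 of 13945 protein-coding genes.

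The elongation factor summits lay close to the start of transcription. The best summit of all 4 bound elongation genes fell within 50 bp of a TSS, 3 of them within 10 bp, with a median distance of 2.5 bp. The best summits of the 9 bound initiation genes had a median distance of 143 bp, and 2 of the 9 fell within 50 bp. Over all 1675 bound protein-coding genes the median was 133 bp and 22.7% lay within 50 bp, whereas the 66 bound ribosomal protein genes had a median of 14 bp and 93.9% within 50 bp. The distances at the 4 elongation genes thus fell in the range that most ribosomal protein genes showed, and no test was made on so few genes. Each distance was to the nearest of all annotated TSSs of the gene. The median number of TSSs was 2 at the 8 elongation genes, and 1 at initiation, ribosomal protein and all protein-coding genes. Whether that number plays a part in the distances was not tested.

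**Figure D2:**
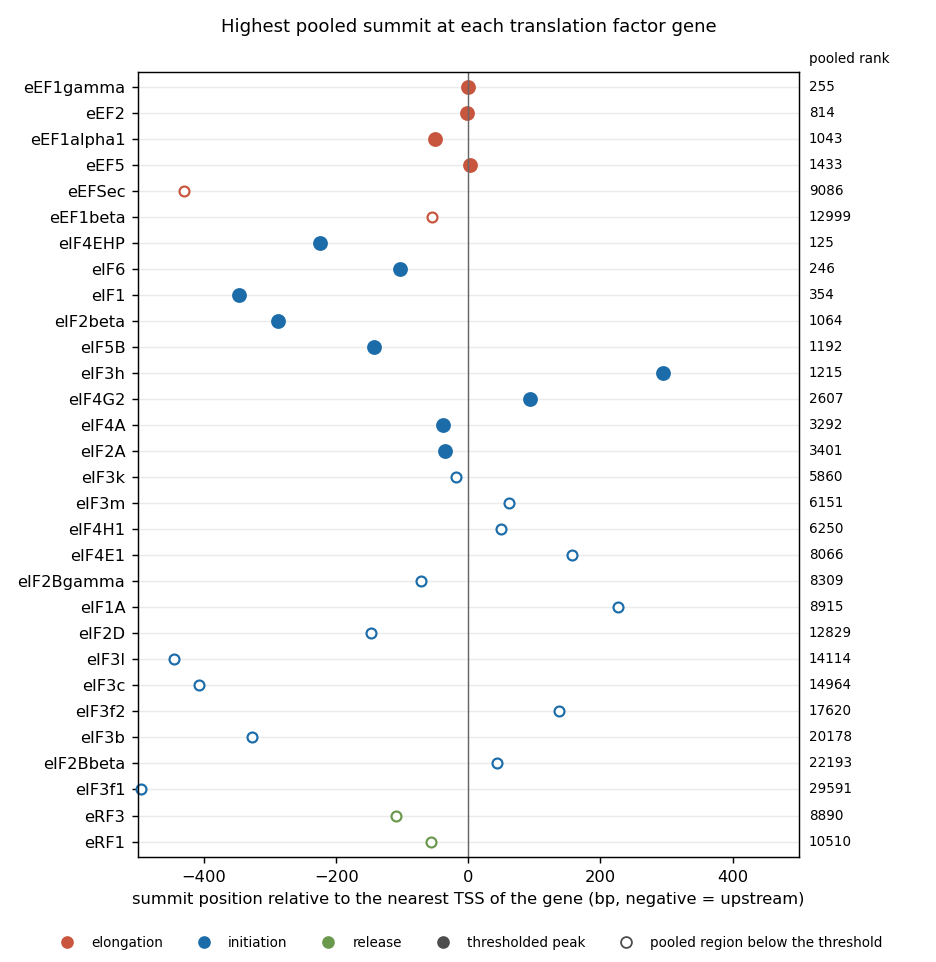
Position of the highest pooled summit relative to the nearest TSS of the same gene, in bp with negative values upstream, for the 30 translation factor genes that have one; filled points are thresholded peaks, open points weaker pooled regions, and the rank in the pooled list stands at the right. The filled elongation points lie between -50 and 3 bp, and the filled initiation points between -347 and 295 bp.

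Of the elongation genes, eEF1gamma, which codes for a subunit of the complex that recharges eEF1alpha with GTP, had the strongest peak. The gene lies on the plus strand at chr3R:29220172-29222109 and its peak at chr3R:29220000-29220303, with the summit 1 bp upstream of the TSS. It ranked 255 in the pooled list with a signal of 532, higher than 90.2% of the 1569 thresholded promoter peaks. In replicate 2 it ranked 306 (signal 239) and in replicate 3 it ranked 231 (signal 293), and the replicate summits were 2 bp apart. The deposited signal has no stated unit, so ranks rather than signals are compared between lists. Rank, distance and summit position therefore matched closely between the replicates at this gene.

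The translocase gene eEF2, on the minus strand at chr2L:21677913-21682164, had a peak of 193 bp at chr2L:21682018-21682210. Its summit lay 2 bp upstream of the shorter transcript's TSS, inside the 5′ UTR of the longer one. The pooled rank was 814 with a signal of 294. Replicate 2 placed it at rank 769 (signal 151) and replicate 3 at rank 940 (signal 142), with summits 1 bp apart.

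At eEF1alpha1, whose product carries charged tRNAs to the ribosome, 2 separate peaks were found within 500 bp of a TSS, which no other of the 54 genes had. The stronger, at chr2R:11891962-11892201, had its summit 50 bp upstream of an internal TSS, in an intron of the longer transcripts, with pooled rank 1043 and signal 251. It ranked 1106 in replicate 2 (signal 121) and 897 in replicate 3 (signal 146). The replicate summits were 52 bp apart, at 2 bp upstream of that TSS in replicate 2 and 54 bp upstream in replicate 3. The weaker peak, at chr2R:11890809-11891188, lay 136 bp upstream of the gene's first TSS and 20 bp upstream of the TSS of ERp60, which codes for a protein disulfide isomerase. It ranked 1687 in the pooled list (signal 186), 1682 in replicate 2 and 1813 in replicate 3. It is nearer to the neighbour than to eEF1alpha1, whereas the internal peak has no other gene's TSS within 500 bp.

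eEF5 codes for the factor called eIF5A in other species, which helps ribosomes past sequences that form peptide bonds slowly. Its peak at chr2R:24057611-24057990 had a summit 3 bp downstream of the TSS, with pooled rank 1433 and signal 205. The ranks were 1871 in replicate 2 (signal 89.2) and 945 in replicate 3 (signal 141). The replicate summits stood 64 bp apart, and in replicate 2 the summit was 3 bp from the gene's other TSS. The other 4 elongation genes had no thresholded peak. eEF1beta and eEFSec, the selenocysteine factor, had weaker pooled regions at ranks 12999 and 9086, and the eEFSec region lay 431 bp upstream of it and 26 bp downstream of the start of Acox57D-p. Within 500 bp of a TSS eEF1delta had a region in replicate 2 alone, and eEF1alpha2, the second gene for eEF1alpha, had none in any list. The 2 genes for eEF1alpha therefore differed, with peaks at rank 1043 and 1687 at eEF1alpha1 and no listed region within 500 bp of a TSS at eEF1alpha2.

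Among the initiation factors the highest peak was at eIF4EHP, a cap-binding protein of the eIF4E family that in flies acts as a translational repressor. The peak at chr3R:24108949-24109366 ranked 125 in the pooled list with a signal of 812, above 95.2% of thresholded promoter peaks. Replicate 2 placed it at rank 86 (signal 464) and replicate 3 at rank 174 (signal 344), with summits 10 bp apart. Its summit lay 224 bp upstream of eIF4EHP and 152 bp upstream of CG18428, which is transcribed in the opposite direction. The region is shared by both promoters, and the summit is nearer to CG18428. Its GC content over 201 bp was 20.4%, and 4 of the 1569 promoter peaks were at or below that value. A further peak lay in an intron of eIF4EHP at chr3R:24099010-24099389, 9760 bp from the nearest TSS of the gene, at rank 2446 with a signal of 147. Of the other 6 eIF4E family genes, eIF4E1, the canonical cap-binding protein, had a pooled region at rank 8066 (signal 66.8) 157 bp downstream of a TSS. Within 500 bp of a TSS eIF4E6 had a region in replicate 3 alone, and eIF4E3, eIF4E4, eIF4E5 and eIF4E7 had none in any list.

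eIF6, which keeps the large ribosomal subunit from joining too early, carried a peak at chr2R:23850284-23850535 with pooled rank 246 and signal 542. It ranked 207 in replicate 2 (signal 289) and 323 in replicate 3 (signal 252), and the replicate summits were 19 bp apart. The summit was 104 bp upstream of eIF6 and 75 bp downstream of the start of an antisense RNA gene, CR45928, on the opposite strand. eIF1, which guards start codon choice, had a peak at chr3L:3222860-3223107 with rank 354 and signal 453. Its ranks were 371 in replicate 2 (signal 223) and 362 in replicate 3 (signal 236), and the summits were 1 bp apart. The summit lay 347 bp upstream of eIF1 but 34 bp upstream of RpL28, a ribosomal protein gene that is transcribed away from eIF1. The eIF1 call is therefore also a call of RpL28, and the summit is nearer to the ribosomal protein gene. With each summit given only to the gene of its nearest TSS, eIF1, eIF4EHP and eIF6 lost their calls, which left 10 of the 54 genes, against 9.47% of all protein-coding genes.

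**Figure D3:**
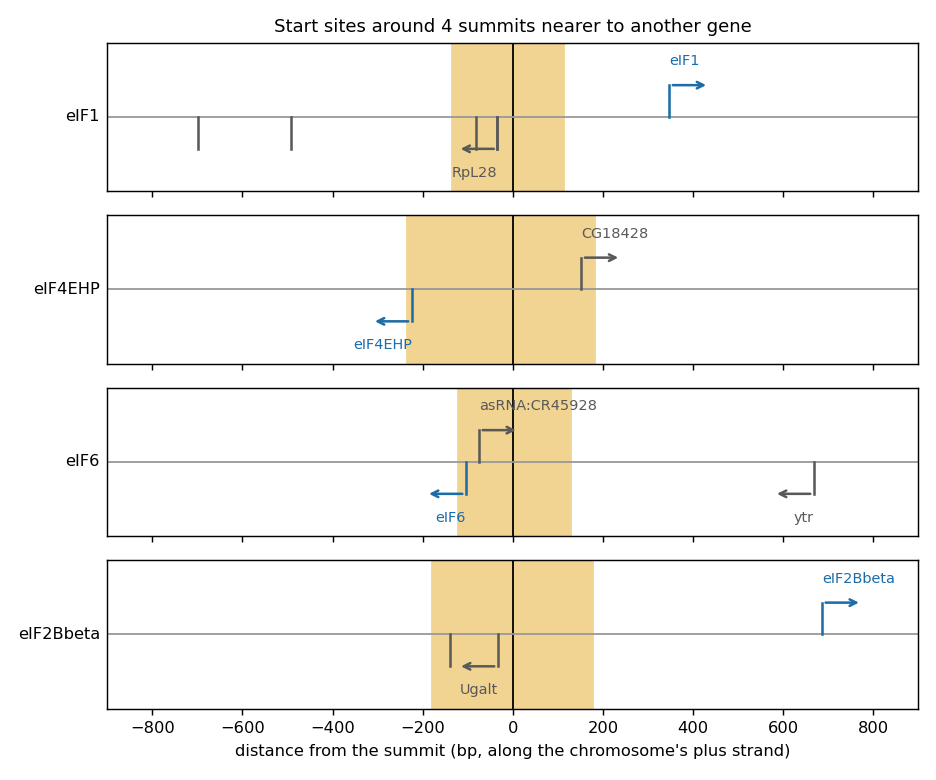
Start sites around 4 summits that are nearer to another gene, drawn as distance from the summit in bp along the chromosome's plus strand; shaded spans are the peaks, ticks are TSSs, arrows give the direction of transcription, the translation factor gene is in blue, and small nucleolar RNA genes are not drawn. The summits lie 347 bp from eIF1 and 34 bp from RpL28, 224 bp from eIF4EHP and 152 bp from CG18428, 104 bp from eIF6 and 75 bp from the antisense gene, and 686 bp from eIF2Bbeta and 33 bp from Ugalt.

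The eIF2 complex carries the initiator tRNA, and of its 3 subunit genes 1 was bound. eIF2beta had a narrow peak of 179 bp at chr3L:12526920-12527098, 288 bp upstream of its TSS with no other start site within 500 bp, at rank 1064 with a signal of 248. It ranked 845 in replicate 2 (signal 143) and 1393 in replicate 3 (signal 110), with summits 3 bp apart. eIF2alpha, the subunit whose phosphorylation curbs initiation under stress, had no summit within 500 bp of a TSS in any list. Its nearest pooled summit was 1721 bp away. eIF2gamma, the subunit that binds GTP and the tRNA, had strong regions in both replicates but none in the pooled list used here. Its ranks were 2758 in replicate 2 (signal 70.3, 39 bp upstream) and 2249 in replicate 3 (signal 81.5, 5 bp upstream), and the nearest pooled summit was 11944 bp away. It was the only 1 of the 54 genes inside the top 3470 regions of both replicates with no pooled summit, a state found at 11 of the 13945 protein-coding genes, and it was singled out after its values were seen. None of the 5 genes for eIF2B, which recharges eIF2 with GTP, was bound. eIF2Bgamma had a pooled region at rank 8309 (signal 65.5, 72 bp upstream) and eIF2Bbeta 1 at rank 22193. Within 500 bp of a TSS eIF2Balpha had a region in replicate 3 alone, and eIF2Bdelta and eIF2Bepsilon had none in any list. A peak outside the 500 bp limit lay 686 bp upstream of eIF2Bbeta, at chrX:2703706-2704063. It is among the strongest in the list, at rank 25 with a signal of 1701, and its summit was 33 bp upstream of the start of Ugalt, the gene for a sugar transporter. It counted for eIF2Bbeta only when the window was widened to 1000 bp.

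Of the 16 subunit genes of the eIF3 scaffold, 1 was bound (6.25%, exact 95% interval 0.158 to 30.2%), an interval that contains the 12.0% of all protein-coding genes. That peak, of 125 bp at chr2L:5052395-5052519, lay in an intron of eIF3h, 295 bp downstream of a TSS, at rank 1215 with a signal of 229. It ranked 846 in replicate 2 (signal 142) and 2702 in replicate 3 (signal 73.0), with summits 7 bp apart. Among the remaining subunits 7 had weaker pooled regions, of which eIF3k (rank 5860, signal 83.1, 18 bp upstream) and eIF3m (rank 6151, signal 80.5, 61 bp downstream) were the highest. Ranks for the other 5 were 14114 for eIF3l, 14964 for eIF3c, 17620 for eIF3f2, 20178 for eIF3b and 29591 for eIF3f1. eIF3a, the largest scaffold subunit, ranked 2205 in replicate 2 (signal 81.0, 50 bp upstream) and was in neither of the other lists, with the nearest pooled summit 12501 bp away; it too was singled out after its values were seen. Within 500 bp of a TSS eIF3d1, eIF3e and eIF3j had replicate regions of low rank only, and eIF3d2, eIF3g1, eIF3g2 and eIF3i had none.

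Of the genes for the RNA helicase group, eIF4A was bound and eIF4B, eIF4H1 and eIF4H2 were not. The eIF4A peak at chr2L:5982365-5982744 was 39 bp upstream of a TSS, within the 5′ UTR of another transcript, and ranked 3292 with a signal of 123. Its ranks were 3519 in replicate 2 (signal 61.0) and 4642 in replicate 3 (signal 52.2), with summits 75 bp apart, the widest gap among the 14 peaks. Both replicate ranks fall outside the top 3470, so this call rests on the pooled reads. A second peak, at chr2L:5980801-5981180 with rank 3447 and signal 118, was 773 bp upstream of eIF4A and 27 bp downstream of the start of chic, the profilin gene. eIF4H1 had a weaker pooled region at rank 6250 (signal 79.6), 49 bp downstream of a TSS. The scaffold gene eIF4G1 had no summit within 500 bp of a TSS in any list, and its nearest pooled summit was 5969 bp away. Its paralogue eIF4G2, known for its role in the male germ line, had a peak at chr3R:23818954-23819333, 93 bp downstream of its TSS and of that of CG33111. That peak ranked 2607 (signal 142), with rank 4287 in replicate 2 (signal 53.8) and rank 2257 in replicate 3 (signal 81.2).

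eIF2A, a factor that can bring the initiator tRNA without eIF2, had the weakest of the 14 peaks within 500 bp of a TSS. The peak at chr3L:21824740-21825119 ranked 3401 with a signal of 120, above 2.04% of thresholded promoter peaks, and its summit lay 35 bp upstream of a TSS in the 5′ UTR of a longer transcript. It ranked 3555 in replicate 2 and 3997 in replicate 3. The next translation factor below it was eIF3k at rank 5860, and no other of the 54 genes had its best pooled rank between those of eIF2A and eIF3k. eIF5B, the GTPase that joins the ribosomal subunits, had a peak at chr3L:3460556-3460935, at rank 1192 with a signal of 231. It centred 143 bp upstream of a TSS, in the 5′ UTR of a longer transcript. Ranks of 1233 in replicate 2 (signal 114) and 1320 in replicate 3 (signal 114) were close to the pooled one. An intron of eIF5B held a further peak at chr3L:3432716-3433095, at rank 2766 with a signal of 137 and 27697 bp from the nearest TSS of the gene. eIF5, the partner of eIF2 in GTP hydrolysis, had no summit within 500 bp of a TSS in any list, and its nearest pooled summit was 644 bp away. eIF1A and eIF2D had pooled regions at ranks 8915 and 12829.

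The release factors eRF1, which reads the stop codon, and eRF3, its GTPase partner, both had pooled regions below the threshold. eRF3 ranked 8890 with a signal of 62.4, 110 bp upstream of its TSS in a promoter shared with SC35, and eRF1 ranked 10510 with a signal of 55.5, 57 bp upstream. Of the 41 genes without a thresholded peak, 17 had a weaker pooled region, 9 had a region in 1 or both replicates only, and 15 had no region within 500 bp of a TSS in any list, against 5764 of the 13945 protein-coding genes without one. A pooled region of any rank was found at 30 of the 54 genes (55.6%), against 6574 of all protein-coding genes (47.1%). No share over all protein-coding genes is given for the classes of 17 and 9 genes.

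The 14 peaks at the 13 bound genes had signals of 120 to 812 with a median of 239, and 10 of the 14 lay above the median of all thresholded promoter peaks, which was 186 and was itself the signal of the weaker eEF1alpha1 peak. Of these peaks 11 had their summit upstream of the nearest TSS of the translation factor gene and 3 downstream, and 6 lay within 500 bp of another gene's TSS as well. No share over all thresholded promoter peaks is given for these counts, so they are not shown to be particular to these genes. All 14 had a summit in each replicate within 100 bp of the pooled one, with a median gap of 16 bp between the replicates. By its label the thresholded list was set by IDR, the irreproducible discovery rate, so agreement of the replicates is part of how its peaks were picked. No value over all thresholded promoter peaks is given for this match or this gap. Both replicates ranked 11 of the 14 inside their own top 3470 regions, and the exceptions were eIF2A, eIF4A and eIF4G2. By gene this was 10 of 13 (76.9%), against 74.9% of all bound protein-coding genes (1254 of 1675). Scored on the top 3470 regions of a single replicate, replicate 2 gave 12 of the 54 genes, against 12.5% of protein-coding genes, and replicate 3 gave 12 of the 54, against 11.8%.

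**Figure D4:**
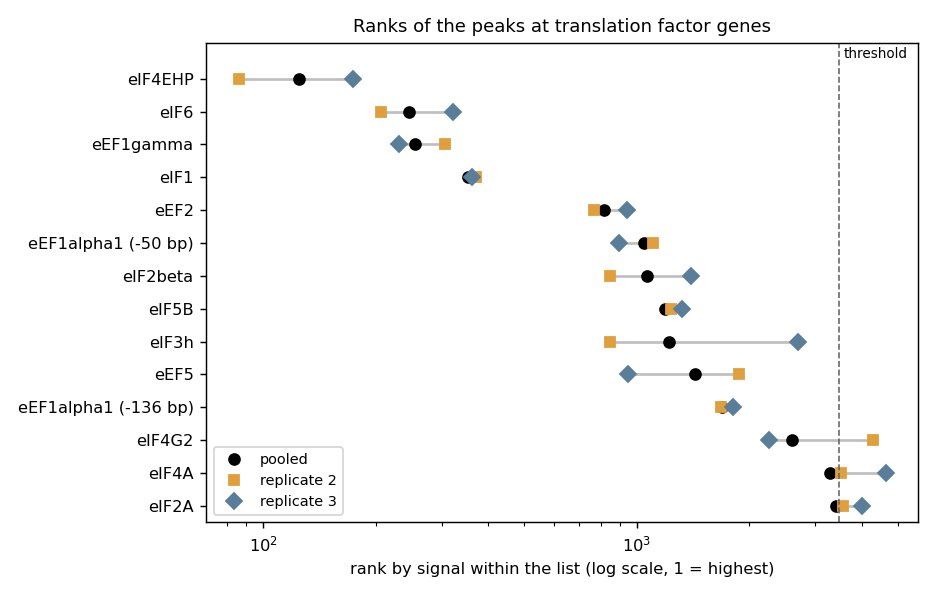
Rank by signal of each of the 14 peaks at translation factor genes in the pooled list (black circles), replicate 2 (orange squares) and replicate 3 (blue diamonds), on a log axis where 1 is the highest, with the threshold of 3470 as a dashed line. The eIF4EHP peak lies between ranks 86 and 174, and eIF2A, eIF4A and eIF4G2 are the peaks with a replicate rank past the threshold.

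The DRE letters TATCGATA, which read the same on both strands, occurred within 100 bp of the summit in 4 of the 14 peaks, at eEF1gamma, eIF1, eIF2A and eIF6, against 4.40% of the 1569 thresholded promoter peaks (69). The match centres were 36.5 bp from the summit at eEF1gamma, 54.5 bp at eIF1, 50.5 bp at eIF2A and 96.5 bp at eIF6, so only that of eEF1gamma lay within 50 bp, where 1.85% of promoter peaks have one. The eIF1 match stands 292.5 bp upstream of eIF1 and 88.5 bp upstream of RpL28. The element was frequent at translation factor promoters whether or not they were bound. It lay within 100 bp of a TSS at 4 of the 13 bound genes (eEF1gamma, eIF2A, eIF4A and eIF6) and at 10 of the 41 others (24.4%), against 10.7% of bound protein-coding genes and 8.49% of all of them, and ribosomal protein genes had it at 29.3% (27 of 92). A match is a run of letters in a window and says nothing about which factor was there.

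The letters CACTGTGC, counted on both strands, occurred near 1 of the 14 summits, at eEF5, with their centre 0.5 bp from the summit, against 8.86% of promoter peaks. The shorter run ACAGTG on either strand, which is contained in the reverse complement of the longer one, was found near 2 summits, at eEF5 and at eIF2beta with its centre 95.5 bp away, against 25.4% of promoter peaks. GAGAG on either strand was found near 2 summits, at eIF4A and at the upstream eEF1alpha1 peak, against 30.3% of promoter peaks. TCTTT on the sense strand, used as a plain form of the TCT element, lay within 20 bp of a TSS at 16 of the 54 genes (29.6%), against 72.8% of ribosomal protein genes and 7.04% of all protein-coding genes. By role it was found at 5 of 8 elongation genes (eEF1alpha1, eEF1alpha2, eEF1beta, eEF2 and eEF5), 11 of 44 initiation genes and 0 of 2 release genes. At the TSS nearest to the best bound summit, eEF2 alone of the 13 genes had it (7.69%). The share was 8.18% of all bound protein-coding genes (137 of 1675), and 48 of 66 bound ribosomal protein genes had it. Counted at any TSS of a gene, 11 of the 41 unbound genes had it (26.8%), against 6.30% of unbound protein-coding genes. Among those 11 was eEF1alpha2, which had no summit within 500 bp of a TSS in any list. By that same count the bound genes eEF1alpha1, eEF2, eEF5, eIF4A and eIF5B had it. The median GC content over 201 bp was 43.5% at the 14 summits, ranging from 20.4% at eIF4EHP to 56.7% at eIF4A, against 38.8% at all promoter peaks. Whether GC content plays a part in where the peaks lie was not tested.

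Other genes of translation were scored by the same rule. The regulators came from a list chosen by textbook role. Mitochondrial factors were taken by symbol (starting mEF, mIF, mRF, mRRF or mtRF, or ico) and ribosomal protein genes by symbols starting RpL or RpS. Of 19 regulators of translation 5 were bound (26.3%, exact 95% interval 9.15 to 51.2%), and 0 of 9 mitochondrial translation factors (upper limit 33.6%). Both intervals contain the 12.0% of all protein-coding genes. The regulators included pAbp, the poly(A)-binding protein, at rank 33 with a signal of 1459 but 479 bp downstream of a TSS. larp, which binds mRNAs of the translation machinery, ranked 80 with its summit 332 bp upstream, Lk6, a kinase of eIF4E, ranked 1060 at 25 bp downstream, and Gcn2, a kinase of eIF2alpha, ranked 1375 at 256 bp upstream. The highest ribosomal protein peaks, RpS27 (signal 868, 17 bp downstream) and RpS4 (signal 794, 1 bp downstream), were in the range of eIF4EHP but placed at the start site as at eEF1gamma and eEF2. The median signal of the best peak per gene was 273 at the 4 bound elongation genes and 231 at the 9 initiation genes, against 332 at ribosomal protein genes and 191 at all bound protein-coding genes.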

How the data were processed

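ChIP-seq regions of CG4707-GFP embryos were analysed from 4 deposited lists: 30000 regions for each of replicates 2 and 3, 30000 for the pooled reads, and 3470 thresholded peaks. Per the deposited file listing, the authors called regions against the same control alignment, and a check of the lists showed that the 3470 thresholded peaks are the pooled regions with the greatest signal. By its label the thresholded list was set by IDR, the irreproducible discovery rate, and the pooled list holds peaks and background as input to it. The deposited signal is a score of unstated unit. The lists also hold the authors' −log10 q-value per region, which was not used to rank. Coordinates are on dm6, per the labels. Neither aligner nor caller is given in the sources used here. Depth is unknown.

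Summits (region start plus the deposited offset) were compared with TSSs of every transcript in Ensembl release 115 with Python 3.11.15, pandas 2.3.3 and numpy 2.4.6. All 54 genes had the same coordinates in RefSeq. Proportions carry exact Clopper-Pearson 95% intervals (scipy 1.17.1), for counting error only. No difference between groups of genes was given a p-value, because the genes were chosen with earlier results of these data known, as were the gene lists, and CACTGTGC and ACAGTG came from an earlier search of these data. Of 20 regulator symbols, 19 matched. Every bound gene is named with its values, every gene with a weaker pooled region with its rank (the 6 highest in full), the others by name, and at most 4 bound genes from each other list. eIF2gamma, eIF3a and peaks beyond 500 bp were described after their values were seen. The scripts were tested on simulated data. Alternatives changed the window, the TSSs, the summit rule, the threshold and the replicate.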

Additional observations from a re-analysis of the deposited data

How the results depend on the processing

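Of the 13 bound genes, 10 kept a summit with a 250 bp window (eIF1, eIF2beta and eIF3h lost; background 9.34%), and 14 genes had one with 1000 bp, where eIF2Bbeta was added (14.7%). With only the most upstream TSS 11 were bound, without eIF3h and eIF4A (10.1%). Using TSSs of protein-coding transcripts left 13 (12.0%), as did any base of the region in place of the summit (13.1%). The upper 50% of the thresholded peaks (1735) gave 10, without eIF2A, eIF4A and eIF4G2, against 6.48% of protein-coding genes. Taking all pooled regions raised the counts to 30 of 54 genes in all (55.6%), 22 of 44 initiation genes (50%) and 2 release genes. The background at that setting was 47.1%. Without replicate 2 the count was 12 (background 11.8%) and without replicate 3 it was 12 (12.5%). Each time 8 initiation and 4 elongation genes were bound. eIF2A and eIF4A were lost both times and eIF4G2 without replicate 3, while eIF2gamma was gained both times and eIF3a without replicate 3. Elongation held 4 of 8 under each setting except all pooled regions, with 6. No release gene was bound under any setting except that one. Within 50 bp of the summit TATCGATA was found in 1 of the 14 peaks, against 1.85% of promoter peaks, and ACAGTG in 1, against 15.7%. Within 150 bp GAGAG was found in 5 of the 14, against 43.5% of promoter peaks. No paired analysis was possible because the series has 1 group. Without read depth, the absence of a region from these lists does not show absence of binding. Nor does a pooled region below the threshold show binding, because that list is labelled as peaks and background.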
